A study of Rattus norvegicus with 12 samples.

Results

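The IL-6 family was followed through 10 genes in cultured neonatal rat heart muscle cells. They comprised 5 cytokines (Il6, Lif, Ctf1, Clcf1, Il11), 4 receptor chains (Il6st, Il6r, Lifr, Osmr) and the feedback inhibitor Socs3. They were taken by gene symbol from the 14506 genes with a named probe set on the array, and each had 1 probe set. The cells were neonatal Sprague Dawley rat cardiac myocytes transfected with a non-silencing siRNA (NS) or with an siRNA against the acetyltransferase p300 (p300kd), and all were then kept in serum-free medium for 48 h. Each kind was collected without doxorubicin (0 h) or after 8 h in 1 µM doxorubicin (Dox), an anthracycline that damages DNA and is toxic to the heart. The 4 groups held 3 arrays each, from 3 experiments. No group was kept for 8 h without Dox, so the drug and the time in culture cannot be told apart. All groups had been transfected, had received bromodeoxyuridine at 0.1 mM against fibroblasts and held over 90% myocytes, per the labels.

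Cytokines of this family signal through receptor complexes that share the chain gp130, the product of Il6st. IL-6 and IL-11 first bind a private receptor, LIF and cardiotrophin-1 join gp130 to the LIF receptor, and oncostatin M also uses the chain encoded by Osmr. The bound receptor activates JAK kinases and the transcription factor STAT3, which induces Socs3, and SOCS3 protein then blocks gp130 signalling. In heart muscle cells LIF and cardiotrophin-1 are known for hypertrophic growth and for protection against cell death.

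Ep300, the gene targeted by the siRNA, had mean log2 intensities of 11.11 ± 0.08 in NS and 10.16 ± 0.22 in p300kd cells at 0 h, and of 10.77 ± 0.08 and 9.85 ± 0.23 at 8 h (SD, n = 3 arrays each). Averaged over both times it was 1.91-fold lower in p300kd cells (limma, adjusted p = 0.00212), so the labels and the target matched. All 10 heart muscle cell markers examined, such as Myh6, Tnnt2 and Ryr2, were above the dim limit, a log2 intensity of 6.46 under which 95% of 188 olfactory and vomeronasal receptor genes lay. Every one of the 10 IL-6 family genes was above this limit on all 12 arrays.

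The promoters of Il6 and Socs3 are shown because these genes moved furthest in opposite directions after Dox. The 250 bases before the RefSeq transcription start were searched on both strands for 7 motifs, spelled NF-kB (GGG and CC around 5 free bases), AP-1 (TGANTCA), CRE (TGACGTCA), C/EBP (TTGCNNAA), STAT (TTCNNNGAA), GAS-like (TTC and GAA around 4 free bases) and the serum response element. Capitals mark matches, and each sequence runs 5′ to 3′ along its gene (GRCr8, minus strand, chr4:5894576-5894825 for Il6 and chr10:103694769-103695018 for Socs3).
Il6: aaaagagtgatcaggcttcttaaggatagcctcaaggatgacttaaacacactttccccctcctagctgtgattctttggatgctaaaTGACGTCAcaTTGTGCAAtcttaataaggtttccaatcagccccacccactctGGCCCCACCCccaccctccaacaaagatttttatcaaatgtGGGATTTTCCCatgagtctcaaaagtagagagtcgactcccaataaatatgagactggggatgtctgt
Socs3: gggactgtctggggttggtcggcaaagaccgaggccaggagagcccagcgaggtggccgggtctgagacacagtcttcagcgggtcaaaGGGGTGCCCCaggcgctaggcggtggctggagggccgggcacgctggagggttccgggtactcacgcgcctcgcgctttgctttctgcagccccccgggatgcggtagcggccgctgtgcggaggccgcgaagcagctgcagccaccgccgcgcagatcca

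In the Il6 promoter the CRE lay 162 to 155 bases before the start and the C/EBP match (TTGTGCAA, the motif read from the other strand) 152 to 145 bases before it. The NF-kB match GGGATTTTCC lay 68 to 59 bases before the start, with a second match on the other strand shifted by 1 base, and a further NF-kB match stood at 109 to 100. Of 33469 promoters of the same length, 1.59% held the CRE, 9.22% the C/EBP and 42.3% the NF-kB spelling, and 21 of them (0.0627%) held these 3 together, a combination picked after the Il6 promoter had been read. The Socs3 window held 1 NF-kB match (GGGGTGCCCC, 161 to 152) and neither STAT spelling, which 7.67% and 6.25% of promoters held. Bases outside these 250 were not searched, so whether Socs3 has STAT spellings elsewhere cannot be told.

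Among the other members, the Il11 promoter is shown for its single match, an AP-1 element at 142 to 136 bases before the start (GRCr8, plus strand, chr1:78098372-78098621), a spelling found in 6.34% of promoters.
Il11: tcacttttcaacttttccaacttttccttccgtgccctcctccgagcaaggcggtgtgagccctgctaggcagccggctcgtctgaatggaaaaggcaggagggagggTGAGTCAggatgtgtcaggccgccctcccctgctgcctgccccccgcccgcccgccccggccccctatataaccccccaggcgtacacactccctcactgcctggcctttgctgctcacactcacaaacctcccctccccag

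Of the other promoters matched, 8 of 10 members in all, those of Lifr, Osmr and Ctf1 held NF-kB matches, and that of Osmr also held an AP-1 match at 33 to 27. Promoters of Il6st and Il6r held none of the 7 motifs, and Lif and Clcf1 were not matched. A match describes letters in this window, taken before 1 annotated start per gene, and no binding was measured. Sequence outside the window and other starts were not searched.

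After 8 h of Dox the cytokines Il6, Lif and Clcf1 rose and Socs3 fell, in NS and in p300kd cells alike in direction. Il6 changed most, 2.67-fold in NS and 2.70-fold in p300kd cells. Ctf1 did not pass the test in either, with the experiment as a block or without. Il11 passed only in NS cells with the experiment as a random block. Of the receptors, Lifr alone passed the test without a block, and in p300kd cells only. In NS cells 3 members were called higher and 1 lower of 10, where 27.5% of all genes were called (11.1% higher, 16.4% lower). In p300kd cells 3 were called higher and 2 lower, where 31.4% of all genes were called (13.9% higher, 17.5% lower). The median member change was 0.09 in both (log2), against 0.04 over all genes in both. A call is an adjusted p under 0.05 over all genes (limma, Benjamini-Hochberg). With the experiment as a block, 3 members were called higher and 3 lower in each kind of cell, where 21.6% and 21.9% of all genes in NS and 22.9% and 22.8% in p300kd cells were called higher and lower.

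**Figure D1:**
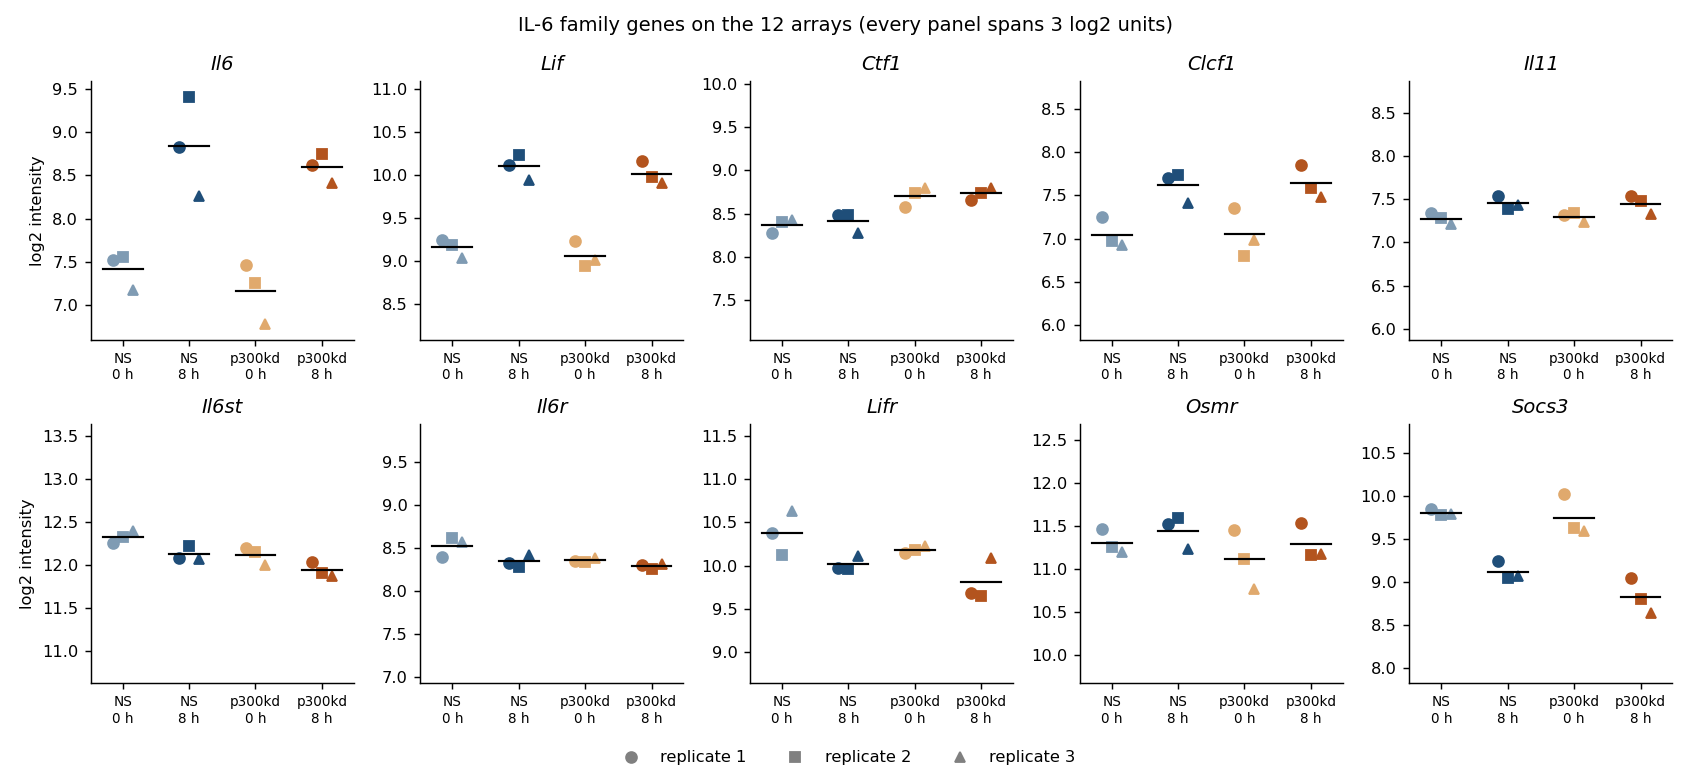
Log2 intensity of the 10 genes on each of the 12 arrays, 1 panel per gene with its own vertical axis; points are arrays and bars are group means of 3 arrays. The Il6, Lif and Clcf1 panels step up and the Socs3 panel steps down from 0 h to 8 h in both NS and p300kd cells, and in the Ctf1 panel the p300kd arrays lie above the NS arrays at both times.

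Il6 encodes the founding cytokine of the family. Its log2 intensity in NS cells was 7.52, 7.55 and 7.17 in replicates 1, 2 and 3 at 0 h and 8.83, 9.42 and 8.26 after Dox. In p300kd cells it was 7.46, 7.25 and 6.78 at 0 h and 8.62, 8.75 and 8.41 after Dox. Every array at 8 h was above every array at 0 h of its own siRNA, and the highest was replicate 2 of the NS cells. The change was 1.42 in NS cells (SE 0.245, limma adjusted p = 0.000949) and 1.43 in p300kd cells (SE 0.245, adjusted p = 0.000747). Il6 was called under all 25 alternatives in NS cells, where its change ranged from 1.13 to 1.71. The summed intensity of 12 macrophage and leukocyte markers, cells that also make IL-6, was 9555 to 11682 on NS arrays at 0 h and 9261 to 12059 at 8 h, ranges that overlap, and of these markers 0 were called higher and 1 lower in NS cells (2 and 1 with the experiment as a block). In p300kd cells the sums were 6553 to 9855 and then 7499 to 9647, with 1 called higher and 2 lower (4 and 2 with the block). Over all genes 11.1% were called higher and 16.4% lower in NS and 13.9% and 17.5% in p300kd cells. With the block these shares were 21.6% and 21.9% in NS and 22.9% and 22.8% in p300kd cells. The part of macrophages and leukocytes in the Il6 rise was not tested.

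Lif, the cytokine that pairs gp130 with the LIF receptor, had log2 intensities of 9.25, 9.19 and 9.03 in NS cells at 0 h and of 10.12, 10.23 and 9.94 after Dox. The p300kd arrays read 9.23, 8.94 and 9.01 at 0 h and 10.16, 9.98 and 9.90 after Dox. The arrays of the 2 times did not overlap in either kind of cell, and arrays of a group lay close together. The rise was 0.94 in NS (1.92-fold, SE 0.110, adjusted p = 5.21e-05) and 0.95 in p300kd cells (1.93-fold, SE 0.110, adjusted p = 4.06e-05), called under all 25 alternatives in both.

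Clcf1, a ligand of the CNTF receptor complex, rose less. Its NS arrays read 7.25, 6.97 and 6.92 at 0 h and 7.71, 7.74 and 7.41 after Dox. The p300kd arrays read 7.36, 6.80 and 6.98 and then 7.85, 7.59 and 7.48. Within each siRNA the times did not overlap, although replicate 1 of the p300kd cells at 0 h lay only just below the lowest array at 8 h. The change was 0.57 in NS (1.49-fold, SE 0.149, adjusted p = 0.0121) and 0.59 in p300kd cells (1.51-fold, SE 0.149, adjusted p = 0.00855). Without replicate 2 neither Clcf1 call held (adjusted p = 0.151 in NS and 0.127 in p300kd cells), and without replicate 3 the NS call was lost (0.0603).

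Il11, a cytokine linked to fibrosis, read 7.34, 7.29 and 7.21 in NS cells at 0 h and 7.54, 7.39 and 7.43 at 8 h. These arrays did not overlap, but the difference of 0.17 (95% interval 0.01 to 0.34) did not pass the test (adjusted p = 0.106). It did not pass with the experiment as a block either (0.0559), and passed with the experiment as a random block (0.0431). The p300kd arrays read 7.31, 7.34 and 7.24 and then 7.54, 7.48 and 7.33, a difference of 0.15 (adjusted p = 0.157) with overlap. Ctf1, which encodes cardiotrophin-1, differed by 0.05 (95% interval -0.15 to 0.24) in NS and by 0.03 (-0.16 to 0.22) in p300kd cells between the times, and its arrays overlapped. Groups of 4 members lay wholly higher and of 3 wholly lower at 8 h in NS cells, where 20.1% and 21.2% of all genes did so. In p300kd cells 3 lay wholly higher and 3 wholly lower, where 21.6% of all genes did so in each direction.

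Of the 4 receptor chains, 3 had lower means at 8 h. Il6st, the shared chain, read 12.26, 12.32 and 12.40 in NS cells at 0 h and 12.09, 12.23 and 12.08 after Dox, so the NS groups did not overlap. In p300kd cells it read 12.20, 12.15 and 12.01 and then 12.04, 11.91 and 11.87, which overlapped. The difference was -0.20 in NS (adjusted p = 0.0625) and -0.18 in p300kd cells (adjusted p = 0.0809). With the experiment as a block, which the arrays bear out as pairs, both passed (0.0155 and 0.0245). Both also passed after quantile normalization without the block (0.0131 and 0.0162).

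Lifr, the LIF receptor, read 10.38, 10.13 and 10.63 in NS cells at 0 h and 9.97, 9.96 and 10.11 after Dox. In p300kd cells it read 10.14, 10.18 and 10.23 and then 9.69, 9.65 and 10.08. In both kinds of cell the lowest array at 0 h was just above the highest at 8 h. The difference of -0.36 in NS cells did not pass (SE 0.134, adjusted p = 0.0614), and with the experiment as a block it did (0.00242). In p300kd cells Lifr fell by 0.38 (SE 0.134, adjusted p = 0.0467), and this call held in 10 of 25 alternatives, with an adjusted p of up to 0.247 without replicate 2.

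Il6r, the private IL-6 receptor, read 8.39, 8.62 and 8.57 in NS cells at 0 h and 8.32, 8.28 and 8.42 after Dox, which overlapped. In p300kd cells it read 8.35, 8.33 and 8.38 and then 8.30, 8.25 and 8.31, a small shift without overlap. It differed between the times by -0.19 in NS (adjusted p = 0.0975) and by -0.07 in p300kd cells (adjusted p = 0.540). The NS difference did not pass with the experiment as a block (0.0566), and passed with the experiment as a random block (0.0475).

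Osmr, the oncostatin M receptor chain, had the largest group SD among the receptors (0.34, p300kd cells at 0 h). Its NS arrays read 11.46, 11.26 and 11.20 at 0 h and 11.52, 11.59 and 11.23 after Dox. The p300kd arrays read 11.45, 11.12 and 10.78 and then 11.54, 11.17 and 11.18, with the first replicate high at both times. The differences of 0.14 in NS (95% interval -0.21 to 0.49) and 0.18 in p300kd cells (-0.17 to 0.53) did not pass the test (adjusted p = 0.563 and 0.435).

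Socs3, which encodes the inhibitor that binds gp130 and JAK kinases, was the only member called lower in both kinds of cell without the block. With the experiment as a block, Il6st and Lifr were also called lower in both. Socs3 read 9.84, 9.78 and 9.79 in NS cells at 0 h and 9.24, 9.04 and 9.07 after Dox. In p300kd cells it read 10.02, 9.62 and 9.59 and then 9.04, 8.80 and 8.64. Every array after Dox was below every array at 0 h, whichever siRNA it had. Socs3 fell by 0.69 in NS (1.61-fold, SE 0.126, adjusted p = 0.00149) and fell by 0.92 in p300kd cells (1.89-fold, SE 0.126, adjusted p = 0.000160). The NS call was lost without replicate 2 (adjusted p = 0.0573), and the p300kd call held in 25 of 25 alternatives.

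**Figure D2:**
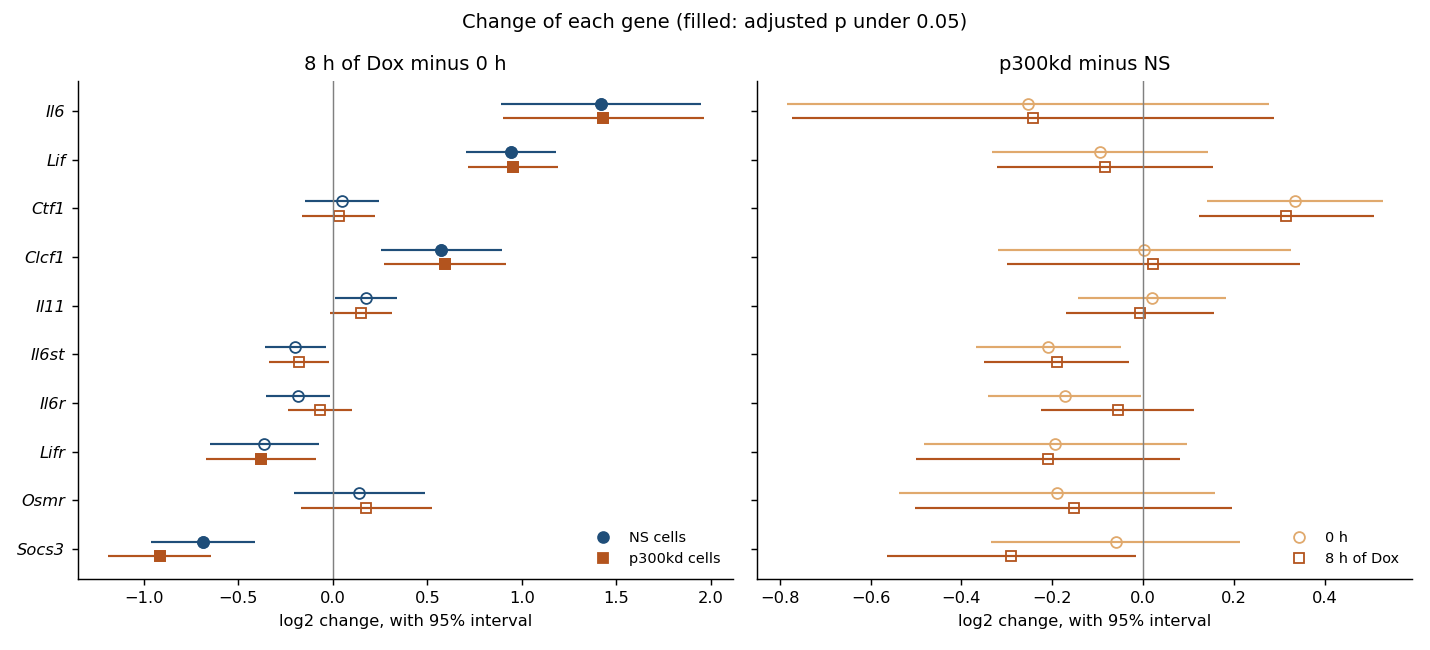
Log2 change of each gene with its 95% interval from limma, after Dox in NS and p300kd cells (left) and in p300kd against NS cells at 0 h and 8 h (right); filled symbols passed an adjusted p of 0.05. On the left the NS and p300kd symbols of a gene lie close together, and on the right no symbol is filled and Ctf1 lies farthest to the right.

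Whether p300 knockdown altered the Dox response was asked by the difference between the 2 responses. No member was called (limma), 0 members had an unadjusted p under 0.05, and over all genes 0 of 14506 were called (0%) and 228 had an unadjusted p under 0.05. The p300kd response exceeded the NS response by 0.01 for Il6 (95% interval -0.74 to 0.76), 0.01 for Lif (-0.33 to 0.35) and 0.02 for Clcf1 (-0.44 to 0.48). For Socs3 it was lower by -0.23 (95% interval -0.62 to 0.16), in 3 of 3 experiments. The interval for Il6 is wide and comes from the fit without the block, in which the difference could not be told from 0. With the experiment as a block, 0 members and 0 of 14506 genes were called.

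Against NS cells at the same time, p300kd cells had higher Ctf1 and somewhat lower Il6st, at levels that passed the test for Ctf1 only when both times were averaged. At 0 h no member was called, where 0.0207% of all genes were called (3 genes), and 3 members and 1008 genes had an unadjusted p under 0.05 (limma). At 8 h no member was called, where 0.0483% were called (7 genes), and 3 members and 1155 genes had an unadjusted p under 0.05. Averaged over both times, 1 member was called higher and 0 lower, where 1.25% of all genes were called (0.227% higher, 1.02% lower). The median member difference was -0.14, against 0.01 over all genes. With the experiment as a block, 1 member was called higher and 2 lower of the averaged differences, where 9.51% of all genes were called (3.23% higher, 6.29% lower). With that block 1 member was called at 0 h (2.69% of all genes) and 0 at 8 h (3.14%).

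Ctf1 read 8.28, 8.40 and 8.43 in NS and 8.58, 8.74 and 8.79 in p300kd cells at 0 h. At 8 h it read 8.49, 8.49 and 8.28 in NS and 8.66, 8.74 and 8.80 in p300kd cells. All 6 p300kd arrays were above all 6 NS arrays, and Ctf1 was higher in 6 of 6 comparisons within an experiment and time, by 0.17 to 0.52. The averaged difference was 0.32 (1.25-fold, SE 0.0631, 95% interval 0.19 to 0.46, adjusted p = 0.0322, and 0.00282 with the experiment as a block). At 0 h alone it was 0.33 (adjusted p = 0.309, blocked 0.0428) and at 8 h 0.32 (0.336, blocked 0.0512). The averaged call held in 12 of 24 alternatives, and it was lost without replicate 2 (adjusted p = 0.529) or replicate 3 (0.496), without 9 of the 12 arrays singly (0.0634 to 0.0942) and with all probe sets tested (0.0644).

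Il6st was lower in p300kd cells by -0.21 at 0 h and by -0.19 at 8 h, and the groups did not overlap at either time. The averaged difference of -0.20 (95% interval -0.31 to -0.09) did not pass without the block (adjusted p = 0.0975) and passed with it (0.00885), as did that of Lifr (-0.20, adjusted p = 0.404, blocked 0.0449). At 8 h Socs3 was lower by -0.29 without overlap (adjusted p = 0.597), and at 0 h Il6r was lower by -0.17 without overlap (adjusted p = 0.708). At each time p300kd arrays lay wholly above NS arrays for 1 member and wholly below for 2 of 10. Over all genes 6.18% lay wholly above and 6.82% wholly below at 0 h, and 4.76% and 6.29% at 8 h. Il6 differed by -0.25 at 0 h and by -0.24 at 8 h, within the spread of its arrays, and Lif by -0.09 and -0.08.

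Some markers of other cells were lower in p300kd cells averaged over both times. In that comparison 0.227% of all genes were called higher and 1.02% lower, and 3.23% and 6.29% with the block. Of 12 macrophage and leukocyte markers, all above the dim limit, 0 were called higher and 4 lower averaged over both times (0 and 9 with the block), with a median difference of -0.29. Their summed intensity was 9555 to 11682 in NS and 6553 to 9855 in p300kd cells at 0 h, and 9261 to 12059 against 7499 to 9647 at 8 h, ranges that overlap a little, and was lower in p300kd cells in 3 of 3 experiments at each time. For 13 fibroblast markers the sums were 73643 to 79380 against 65609 to 75805 at 0 h and 73209 to 78392 against 65716 to 75424 at 8 h, with 0 called (0 higher and 7 lower with the block). Fibroblast and endothelial sums were also lower in p300kd cells in 3 of 3 experiments at each time, and 0 of 10 heart muscle cell markers were called. Of 9 endothelial, 9 smooth muscle and 4 erythroid markers, 0, 1 and 0 were called, lower, averaged over both times. After Dox 1 fibroblast marker was called higher and 1 lower in NS cells (Thy1, 0.49, and Pdgfra, -0.79), and 2 higher and 1 lower in p300kd cells (Thy1, 0.51, S100a4, 0.79, and Pdgfra, -0.88). With the block, 2 fibroblast markers were called higher and 2 lower in NS and 4 and 2 in p300kd cells. After Dox 2 endothelial and 2 smooth muscle markers were called lower and 1 erythroid marker higher in each kind of cell. Erythroid sums were 552 to 602 at 0 h and 691 to 743 at 8 h in NS cells. Over all genes 11.1% were called higher and 16.4% lower in NS and 13.9% and 17.5% in p300kd cells. With the block, 2 endothelial markers were called higher and 4 lower in NS and 1 and 3 in p300kd cells. Smooth muscle markers gave 3 and 2 in NS and 3 and 3 in p300kd cells with the block. Over all genes the block gave 21.6% higher and 21.9% lower in NS and 22.9% and 22.8% in p300kd cells. The part of these cell types in the Ctf1, Il6st and Lifr differences was not tested. In whole cultures fewer cells of a type and less RNA per cell cannot be told apart.

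**Figure D3:**
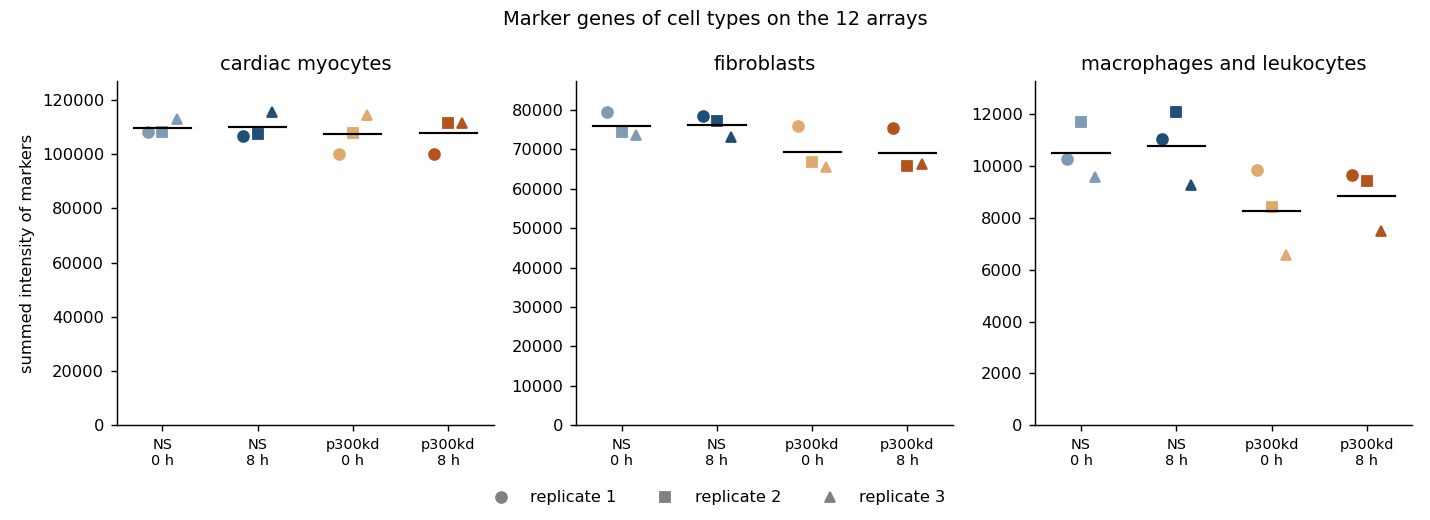
Summed linear intensity of the heart muscle cell, fibroblast, and macrophage and leukocyte marker lists on each array, by group. Points are the 12 arrays, bars are group means and each vertical axis starts at 0. The macrophage and leukocyte means are lower in p300kd than in NS groups (arrays at 6553 to 9855 against 9555 to 11682 at 0 h), and the heart muscle cell sums overlap between groups.

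Other ligands of the family showed no call after Dox without the block. Of 4 measured (Osm, Cntf, Ctf2, Ebi3), 0 were called in either kind of cell. With the experiment as a block, Cntf (-0.36, blocked adjusted p = 0.0149) and Ebi3 (-0.17, blocked 0.0461) were called lower in p300kd cells. Osm, which encodes oncostatin M, differed by 0.12 in NS cells (adjusted p = 0.377). Ebi3, a subunit of IL-27, was lower in p300kd cells averaged over both times (-0.42, adjusted p = 0.0330), a call that held in 11 of 24 alternatives. Of 3 other receptors, Il11ra1, the IL-11 receptor, fell by 0.36 after Dox in p300kd cells (adjusted p = 0.0293, held in 17 of 25 alternatives). Cntfr, the receptor chain through which CLCF1 acts, differed by 0.41 in NS and 0.43 in p300kd cells (adjusted p = 0.0700 and 0.0546) and passed in both with the block (0.000538 and 0.000331). Il11ra1 differed by -0.22 in NS cells (adjusted p = 0.184) and passed there with the block (0.0140).

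Downstream of the receptors, more signalling genes fell than rose after Dox. Of 13 JAK, STAT and adaptor genes, 1 rose and 6 fell in NS cells (median -0.10) and 2 rose and 6 fell in p300kd cells (median -0.15). Over all genes the medians were 0.04, and 11.1% were called higher and 16.4% lower in NS and 13.9% and 17.5% in p300kd cells, so more genes fell than rose over the whole array too. Stat3, the main transcription factor of the pathway, fell by 0.50 in NS (SE 0.0623, adjusted p = 8.97e-05) and fell by 0.59 in p300kd cells (adjusted p = 1.99e-05). Gab1, a docking protein for gp130 signals, fell in both (-0.69 in NS and -0.60 in p300kd cells), as did Sos1, an activator of RAS (-0.60 and -0.63). Stat5a (-0.47 in NS and -0.55 in p300kd cells) and Stat6 (-0.36 and -0.57) were lower in both. Jak1, the principal kinase of gp130, rose by 0.26 in p300kd cells (adjusted p = 0.0121, held in 21 of 25 alternatives) and differed by 0.13 in NS cells (adjusted p = 0.188), a difference between the 2 kinds of cell that was not called.

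Of 13 other inhibitors of JAK-STAT signalling, 2 rose and 6 fell in NS cells (median -0.30) and 0 rose and 6 fell in p300kd cells (median -0.26). Over all genes 11.1% were called higher and 16.4% lower in NS and 13.9% and 17.5% in p300kd cells, with medians of 0.04. Socs2, an inhibitor known for restraining growth hormone signalling, fell by 1.76 in NS (SE 0.0953, adjusted p = 2.63e-07) and fell by 1.85 in p300kd cells (adjusted p = 1.65e-07). Cish, a related inhibitor induced by STAT5, also fell in both (-0.81 and -0.95). So did Pias1, a SUMO ligase that restrains STATs (-0.57 and -0.54), and Pias4, of the same family (-0.55 and -0.58). Against these, Socs1 rose by 0.37 (adjusted p = 0.00710) and Socs4 by 0.43 (adjusted p = 0.0299) in NS cells, calls that held in 24 and 19 of 25 alternatives. The SOCS genes therefore did not share a direction after Dox in NS cells.

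Of 18 genes known as STAT3 targets, 1 rose and 3 fell in NS cells (median 0.09) and 2 rose and 3 fell in p300kd cells (median 0.08), counts near the shares of all genes called higher and lower (11.1% and 16.4% in NS, 13.9% and 17.5% in p300kd cells). Mcl1, a survival factor, fell in both (-0.76 in NS and -0.79 in p300kd cells), as did Pim1, a survival kinase (-0.73 and -0.90). Bcl2l1, which encodes BCL-xL, fell less (-0.39 and -0.43). Fos rose by 0.36 in NS (adjusted p = 0.0277, held in 18 of 25 alternatives) and by 0.56 in p300kd cells (adjusted p = 0.00186), and Vegfa rose by 0.28 in p300kd cells (adjusted p = 0.0118), a call that held in 22 of 25 alternatives and was lost without replicate 2, without replicate 3 and without replicate 3 of the p300kd cells at 0 h. With the experiment as a block, 4 of the 18 rose and 3 fell in each kind of cell. Over all genes 21.6% were called higher and 21.9% lower in NS and 22.9% and 22.8% in p300kd cells in that fit. Ccnd1, which encodes cyclin D1, was lower in p300kd cells averaged over both times (-0.38, adjusted p = 0.0422, held in 10 of 24 alternatives).

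Genes that control Il6 transcription or mRNA decay were called lower or not at all without the block. Of 12, 0 rose and 5 fell in NS cells (median -0.14), and 0 rose and 6 fell in p300kd cells (median -0.24). Falls outnumbered rises over all genes too, with 11.1% called higher and 16.4% lower in NS and 13.9% and 17.5% in p300kd cells. Rela, the NF-kB subunit known to drive Il6, changed by -0.70 in NS and -0.98 in p300kd cells (adjusted p = 7.91e-05 and 5.64e-06). Arid5a, which stabilises Il6 mRNA, changed by -0.76 and -1.12. Zfp36 and Zfp36l1, which promote the decay of such mRNAs, changed by -0.69 and -0.45 in NS cells and by -0.77 and -0.42 in p300kd cells. The NS call of Arid5a was lost without replicate 1 and without replicate 2, and that of Zfp36 without replicate 2. Il1b, an inducer of Il6, differed by 0.52 in NS cells (adjusted p = 0.136) and passed there with the block (0.0205). It was the 1 gene of this list called higher in that fit, where 21.6% of all genes were called higher. Zc3h12a, an RNase that cuts Il6 mRNA, differed by 0.24 (adjusted p = 0.250). Il1r1, the IL-1 receptor, was lower in p300kd cells averaged over both times (-0.33, adjusted p = 0.0330, held in 12 of 24 alternatives). In receptor shedding, neither Adam17, the protease that frees soluble IL-6 receptor, nor Rhbdf2 was called after Dox in either kind of cell.

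**Figure D4:**
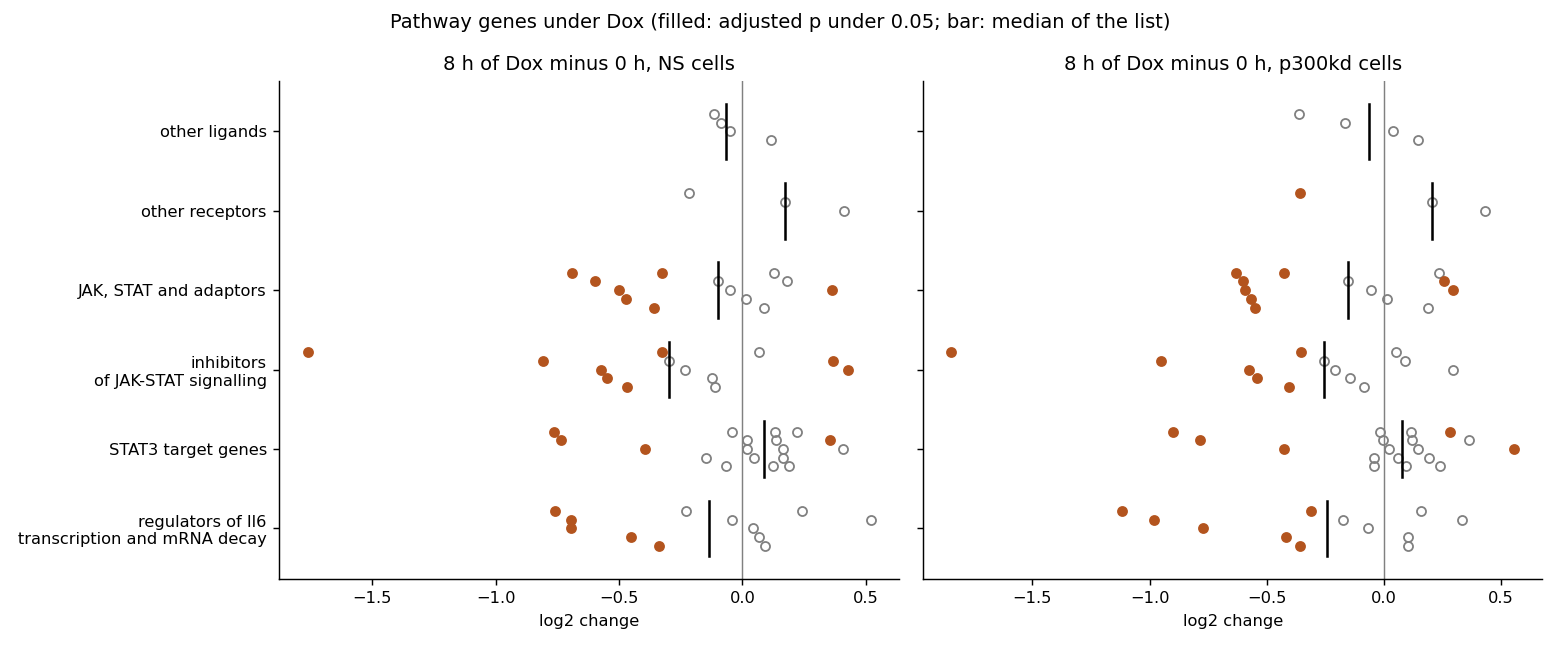
Log2 change after Dox (horizontal axis) of each gene of 6 pathway lists in NS (left) and p300kd cells (right), 1 row per list; filled points passed an adjusted p of 0.05 and bars are list medians. Most filled points lie left of 0, and Socs2 lies farthest left in both panels (-1.76 and -1.85).

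The genes whose log2 values ran most like those of Il6, Lif and Socs3 over the 12 arrays were listed as a description. A strong Dox response shared by genes raises r over arrays of 0 h and 8 h, so r was also taken on deviations from the 4 group means. The genes were picked by r over all 12 arrays, which includes these deviations, so the r of deviations is no independent check. For Il6 the nearest genes were Clec2d2 (r = 0.982), Tfpi2 (0.980), Gk (0.969), Lca5 (0.969) and Rprm (0.968), with r of deviations from 0.836 to 0.906. For Lif they were Fam167a (0.992), Lnpk (0.989), Il1rl2 (0.988), Rprm (0.988) and Fosl1 (0.988), with r of deviations from 0.832 to 0.945. Rprm stood in both lists. For Socs3 they were Synpo (0.988), Herpud1 (0.987), Sorbs3 (0.987), Bhlhe40 (0.985) and Nr1d1 (0.985), with r of deviations from 0.888 to 0.943. Among the members Lif and Clcf1 were close over the arrays (r = 0.941) and in deviations (0.939), while Il6 and Socs3 ran against each other over the arrays (r = -0.767) and not in deviations (0.331). All 12 arrays enter each r, and arrays of 1 experiment share its conditions.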

How the data were processed

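Total RNA of 12 cultures was measured on Affymetrix whole-transcript arrays. The deposited values are linear intensity values per probe set, made by the authors with Affymetrix Expression Console 1.1 and RMA, per the submitters' processing notes. RMA subtracts a modelled background, equalises the arrays' distributions and combines the probes of a set. How the values became linear is not given in the sources used here. Log2 was taken here, and array medians were 7.73 to 7.80. Of 29214 probe sets, 15310 had 1 gene symbol in the platform annotation, 323 several and 13581 none, and only the first were used. The brightest probe set per gene left 14506 genes, of which 14480 had their Entrez identifier in the GRCr8 table. No filter on level was applied.

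All 6 comparisons came from 1 model of 4 group means, using limma 3.58.1 under R 4.3.3 (lmFit, then eBayes with a trend, two-sided, 8 residual degrees of freedom). Adjusted p-values are by Benjamini-Hochberg over all genes, called under 0.05. The script was tested on simulated data. Intervals are 95%. Figures used Python 3.11.15 and matplotlib 3.10.9.

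Whether replicate numbers pair the arrays was checked on deviations from the group means. The 18 pairs with 1 number in different groups correlated at 0.172 to 0.689 (median 0.504, against -0.271 for other pairs of different groups). Deviations within a group cancel out, so these medians are not independent of each other. For each of the 12 arrays, the most similar array of another group shared its number. The series design text speaks of 3 experiments, so the number was used as a block in an alternative fit. Replicates are called biological in the labels. P-values measure the spread between these samples. Precision is limited by having 3 arrays a group.

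The members and lists were chosen with earlier results of these data known. Named are all members, Ep300, up to 4 called genes per list, direction and comparison, up to 2 not called, and the 5 genes most correlated with Il6, Lif and Socs3. Some genes of the lists are not reported here. Alternatives were the block, a random block, only the groups compared, median centring, quantile normalization, no trend and a pseudocount of 16. Others were dim genes left out, all probe sets, the mean of a gene's probe sets, and each array or replicate left out. Each member had 1 probe set, so that mean left its values unchanged.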

Additional observations from a re-analysis of the deposited data

How the results depend on the processing

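No member or list gene called in a comparison changed direction under any alternative run. Among single genes, 1444 values stayed on their side of the threshold with their direction, 94 that were not called took the other sign, 58 lost and 32 gained a call. With the replicate number as a block (the paired fit), genes called for Dox in NS cells went from 3992 to 6317, for p300kd at 0 h from 3 to 390, at 8 h from 7 to 455 and averaged from 181 to 1380, and members called at 0 h from 0 to 1 and averaged from 1 to 3. The fixed block changed the calls of Il6st, Lifr and Ctf1 given above and of no other member. With the random block, genes called were 125 at 0 h, 92 at 8 h and 816 averaged, with 2 members averaged. For Dox in NS cells it called 5746 of all 14506 genes (3992 without it). Members called there were 8 of 10 (4 without it, to which Il11, Il6r, Il6st and Lifr were added). With only the groups compared, which gives no averaged or interaction value, 0 genes were called at 0 h and 0 at 8 h. With dim genes left out, 4 were called at 8 h. With all probe sets tested, 0 were called at 0 h, 0 at 8 h and 39 averaged, with 0 members. Leaving out arrays or replicates gave 1782 to 4266 genes and 2 to 5 members for Dox in NS cells, 2269 to 4847 and 3 to 5 for Dox in p300kd cells, 0 to 20 genes at 0 h, 0 to 17 at 8 h, 0 to 371 genes and 0 to 2 members averaged, and 0 to 0 for the interaction; the lowest Dox gene counts came without replicate 2, and the averaged count was 0 without replicate 2 and without replicate 3. Centring or quantile scaling moved no median over all genes by 0.1, but some member calls changed. Quantile scaling added the Il6st calls for Dox in both kinds of cell. The Lifr call for Dox in p300kd cells was lost with centring (adjusted p = 0.05015) and with quantile scaling (0.0949). With 3 arrays a group, the median SE of a difference between 2 groups was 0.0951 (log2). The cause of these shifts was not tested.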
